A study of Homo sapiens with 8 samples.

Results

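The proteasome genes of an osteosarcoma cell line were followed here: the rows whose symbols belong to the PSMA, PSMB, PSMC, PSMD, PSME, PSMF and PSMG families and that had a value in all 8 libraries. The name rule matched 49 symbols, of which 47 had all 8 values, out of 13943 genes with 8 values in the table. PSMB11, the thymus-specific catalytic subunit, had a value in knockout library 3 alone (-6.16), and PSMA8, the testis-specific alpha subunit, was blank throughout. All 47 also had a mean of at least 1 and were tested among 9016 genes, so the filter on low values removed none of them.

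The cells were 143B, an established human osteosarcoma line derived from HOS cells by Ki-ras transformation, grown in DMEM with fetal bovine serum and antibiotics and transfected transiently with TransIT-LT1. The 4 control libraries came from cells that received a vector plasmid, and the 4 libraries labelled NELL1 knockout from cells that received a NELL1KO plasmid, all taken at 48 h. NELL1 encodes a secreted protein first studied in bone formation. The labels do not give the share of cells transfected or edited, the design calls the samples biological replicates without saying that cultures were separate, and p-values measure only the spread between these libraries.

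The deposited values are on a log2 scale and had been quantile normalized, with the same median of 1.77 in every library, and the unit before the logarithm is not given in the sources used here. Levels of different genes are therefore not compared, and a fold change is relative to the rest of the transcriptome. The depth is unknown, because no counts are given. NELL1 itself lay near the bottom of the range, at -6.97, -6.97, -4.53 and -5.00 in controls 1 to 4 and at -4.82, -5.87 and -6.96 in knockouts 1, 2 and 4 with knockout 3 blank, so its transcript did not check the labels. Of 14 mesenchymal and bone markers 12 had 8 values; their summed log2 level was 10.9 to 11 in controls and 10.3 to 10.8 in knockouts, led by VIM, while COL1A2 and THY1 were blank in some libraries. Of 14 leukocyte markers, PTPRC, CD3E, MS4A1 and CD74 were blank in all libraries, and the summed level (5.76 to 5.94 in controls, 5.55 to 5.93 in knockouts) came almost wholly from CD68 (5.54 to 5.90), a lysosomal protein gene. Of 8 epithelial markers 2 had 8 values, EPCAM and CLDN4 (summed level 2.47 to 2.80 in controls, 1.91 to 2.82 in knockouts). In such bulk RNA, fewer cells of a type and less RNA per cell cannot be told apart.

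The knockout libraries stand apart from each other in pairs, and several results below rest on this. The SD across the 47 proteasome genes of the difference between 2 libraries was 0.08 for knockouts 1 and 2 and 0.12 for knockouts 3 and 4, but 0.28 to 0.35 between those pairs, against 0.20 to 0.26 between a knockout and a control. Within the controls it was 0.06 to 0.17. Many results are accordingly given with their difference in libraries 1 and 2 (knockouts 1 and 2 minus controls 1 and 2) and in libraries 3 and 4. A gene given without these 2 values may still differ between the pairs.

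The proteasome is the main protease of the cytosol and nucleus and degrades proteins marked with ubiquitin. Its 20S core is a barrel of alpha and beta rings, with proteolytic sites in the beta subunits PSMB5, PSMB6 and PSMB7; the 19S regulator unfolds substrates with its PSMC ATPases and removes ubiquitin in its lid. Interferon-gamma and NF-kappaB signalling induce PSMB8, PSMB9 and PSMB10, which replace those catalytic subunits to form the immunoproteasome and alter which peptides are made for class I antigen presentation. Most standard subunit genes can be raised together by the transcription factor NFE2L1 when proteasome activity falls short.

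Few proteasome transcripts passed the test. Of 47 genes 3 passed the test, PSMB10, PSMA4 and PSMC3, all higher in the knockout libraries (limma, Benjamini-Hochberg adjusted p under 0.05 over 9016 genes), and none was lower. That is 6.38% of the proteasome genes against 13.1% of all tested genes, and in the upward direction 6.38% against 7.02%, so the calls were no more frequent than the background; 6.1% of all tested genes were called lower. At an unadjusted p under 0.05 limma gave 13 proteasome genes higher and 1, PSMA5, lower. Over all 9016 tested genes 2675 met that threshold in either direction. Taken in both directions together, the proteasome genes were not above that background. The tested genes higher and lower at that threshold were not counted apart, so the 13 higher have no background of their own. The direction was less even than the calls: 37 of 47 genes had a difference above 0, compared with 51.3% of all tested genes, and the median log2 difference was 0.13 against 0.01 for all tested genes. No proteasome gene differed by more than 0.50 log2 units over all 4 knockouts, and the median 95% interval of a difference was ± 0.19. Differences within the library pairs were larger for some genes, up to 0.78 for PSMB10 in libraries 1 and 2.

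All 4 knockout values lay above all 4 control values for 12 proteasome genes (25.5%, against 12.5% of tested genes) and below them for 2, PSMA5 and PSMD5 (4.26%, against 10.4%), so the groups did not overlap for 14 genes, against 22.9% of tested genes. With the replicate number as a block, no proteasome gene passed, where limma called 10.2% of all genes (9 proteasome genes higher and 1 lower at an unadjusted p under 0.05), and PSMC3, PSMB10 and PSMA4 had adjusted p = 0.0502, 0.0685 and 0.0739. With knockouts 1 and 2, and knockouts 3 and 4, each averaged to 1 sample, none passed either, where 1.2% of all genes did (6 higher at an unadjusted p under 0.05), and the adjusted p-values of PSMB10, PSMA4 and PSMC3 were 0.145, 0.159 and 0.174. Without the filter on low values none passed, where limma called 8.3% of all genes. At an unadjusted p under 0.05 that limma fit gave 10 proteasome genes higher and 1 lower, and 3708 of all 13943 genes. When single libraries were left out each of the 3 genes kept its call in 2 of 8 fits: PSMB10 without control 3 or knockout 4, PSMA4 without knockout 1 or 2, and PSMC3 without control 3 or knockout 1.

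**Figure D1:**
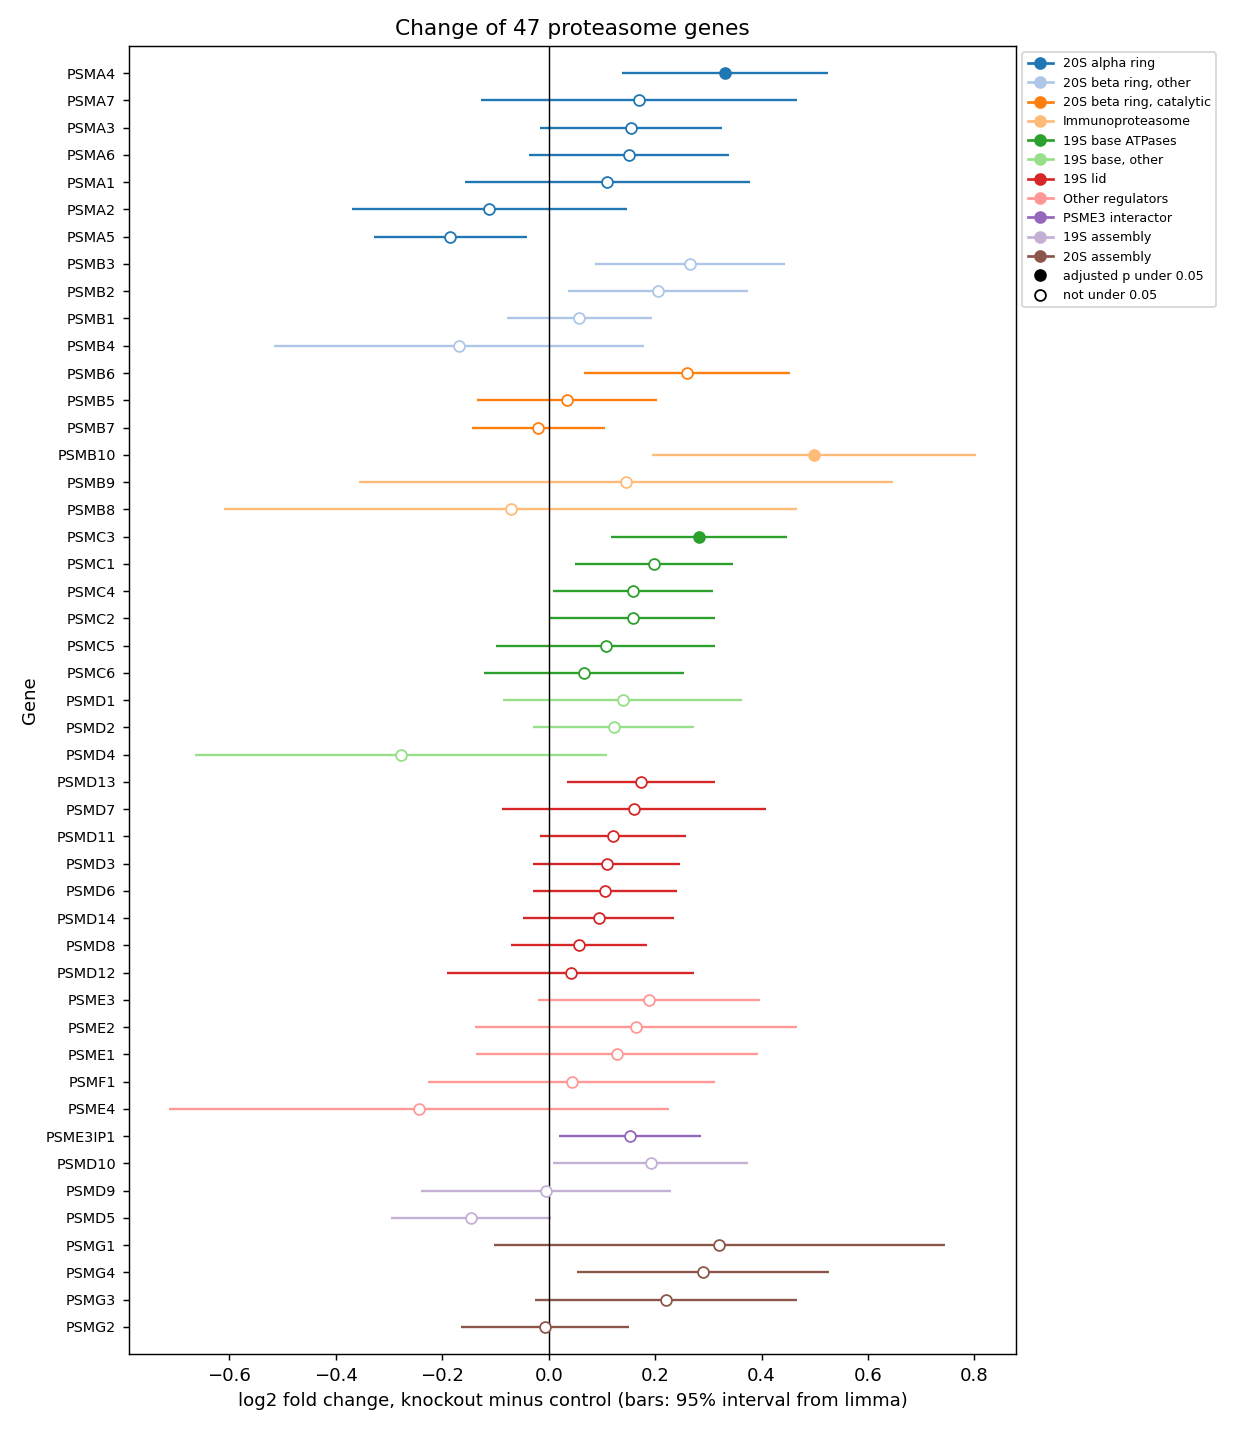
Log2 fold change (knockout minus control, x axis) of each of the 47 proteasome genes (y axis), coloured by subunit group; bars are 95% intervals from limma over 4 control and 4 knockout libraries, and filled points have an adjusted p under 0.05. Most points lie to the right of 0, the 3 filled points are PSMA4, PSMB10 and PSMC3, and the intervals of PSMB8, PSMB9 and PSME4 are wide.

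The immunoproteasome genes behaved differently from one another. PSMB10, the trypsin-like subunit that replaces PSMB7, was at 2.90, 2.86, 3.21 and 2.87 in controls 1 to 4 and at 3.67, 3.64, 3.36 and 3.16 in knockouts 1 to 4. Control 3 lay above knockout 4, and every other control lay below every knockout. PSMB10 rose by 0.50 ± 0.13 (SE; 1.41-fold; limma adjusted p = 0.0436), the largest difference among the 47 genes, from 2.96 ± 0.17 to 3.46 ± 0.24 (SD, n = 4 each). The difference was 0.78 in libraries 1 and 2 and 0.22 in libraries 3 and 4. Without knockouts 1 and 2 it was 0.30 and did not pass (limma adjusted p = 0.0738), and without knockouts 3 and 4 it was 0.70 (limma adjusted p = 0.00303). Both fits were chosen after the data were seen, and limma called 41.4% and 40.5% of all tested genes in them.

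PSMB8, the chymotrypsin-like subunit that replaces PSMB5, was tight in the controls at 3.98, 4.02, 4.07 and 3.94 and divided the knockouts, at 4.51, 4.30, 3.48 and 3.44. Knockouts 1 and 2 lay above every control and knockouts 3 and 4 below every control. The mean difference of -0.07 ± 0.24 (SE; limma adjusted p = 0.872; 95% interval -0.61 to 0.47) averages 0.40 in libraries 1 and 2 and -0.55 in libraries 3 and 4. Taken against all controls, knockouts 3 and 4 were lower by limma (-0.54, adjusted p = 7.466e-04) and knockouts 1 and 2 higher (0.40, adjusted p = 0.00642). These fits of 2 knockouts against 4 controls were added after this split was known. In them limma called 41.4% and 40.5% of all tested genes.

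PSMB9, which replaces PSMB6, was at 1.87, 2.05, 2.21 and 2.28 in the controls and at 2.75, 2.55, 1.73 and 1.96 in the knockouts. Knockouts 1 and 2 were again above every control, while knockout 3 was below them all and knockout 4 fell within their range. Its difference was 0.15 ± 0.22 (SE; limma adjusted p = 0.702; 95% interval -0.36 to 0.65), made of 0.69 in libraries 1 and 2 and -0.40 in libraries 3 and 4. Against all controls, knockouts 1 and 2 gave 0.55 (limma adjusted p = 0.0125) and knockouts 3 and 4 gave -0.26 (limma adjusted p = 0.140). These fits too were added after the split was known, and limma called 40.5% and 41.4% of all tested genes in them.

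The difference had opposite signs in the library pairs for 16 of 47 proteasome genes, 12 of them higher in libraries 1 and 2. Of the proteasome genes 57.4% were above 0 in both pairs and 8.51% below 0 in both, against 30.4% and 26.7% of all tested genes. Opposite signs were thus no more frequent among the proteasome genes than among all tested genes. The stricter arrangement seen in PSMB8 was met by 5 genes: PSMB8, PSME1, PSMF1, PSMA1 and PSMD9 each had knockouts 1 and 2 above and knockouts 3 and 4 below every control. That is 10.6%, against 7.81% of all tested genes, and the reverse arrangement was met by none of them, against 7.09% of tested genes.

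Of the standard catalytic subunits, PSMB7 and PSMB5 varied far less among the knockouts. PSMB7 was nearly level, at 6.70, 6.76, 6.76 and 6.73 in controls and 6.75, 6.69, 6.70 and 6.73 in knockouts, a difference of -0.02 (95% interval -0.14 to 0.11; limma adjusted p = 0.848). PSMB5 was at 6.35, 6.34, 6.55 and 6.30 in controls and 6.45, 6.48, 6.39 and 6.35 in knockouts, a difference of 0.03 (95% interval -0.13 to 0.20; limma adjusted p = 0.797). PSMB6, the caspase-like subunit, was at 6.67, 6.80, 6.74 and 6.65 in controls and at 7.11, 7.09, 6.85 and 6.84 in knockouts. All PSMB6 knockout values exceeded all its controls, yet the difference of 0.26 ± 0.08 (SE) had a limma adjusted p of 0.0782. The PSMB6 difference was 0.37 in libraries 1 and 2, beside the 0.40 of PSMB8 there, and 0.15 in libraries 3 and 4.

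Set against its standard counterpart within each library, a ratio in which gene length cancels between groups, PSMB10 over PSMB7 was -3.78 ± 0.16 in controls and -3.26 ± 0.24 in knockouts on the log2 scale (SD, n = 4 each). This ratio changed by 0.79 in libraries 1 and 2 and by 0.25 in libraries 3 and 4. PSMB8 over PSMB5 changed by 0.28 and -0.49 in the same libraries, and PSMB9 over PSMB6 by 0.32 and -0.55. All 3 ratios were thus higher in libraries 1 and 2, and in libraries 3 and 4 those of PSMB8 and PSMB9 were lower while that of PSMB10 was not.

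**Figure D2:**
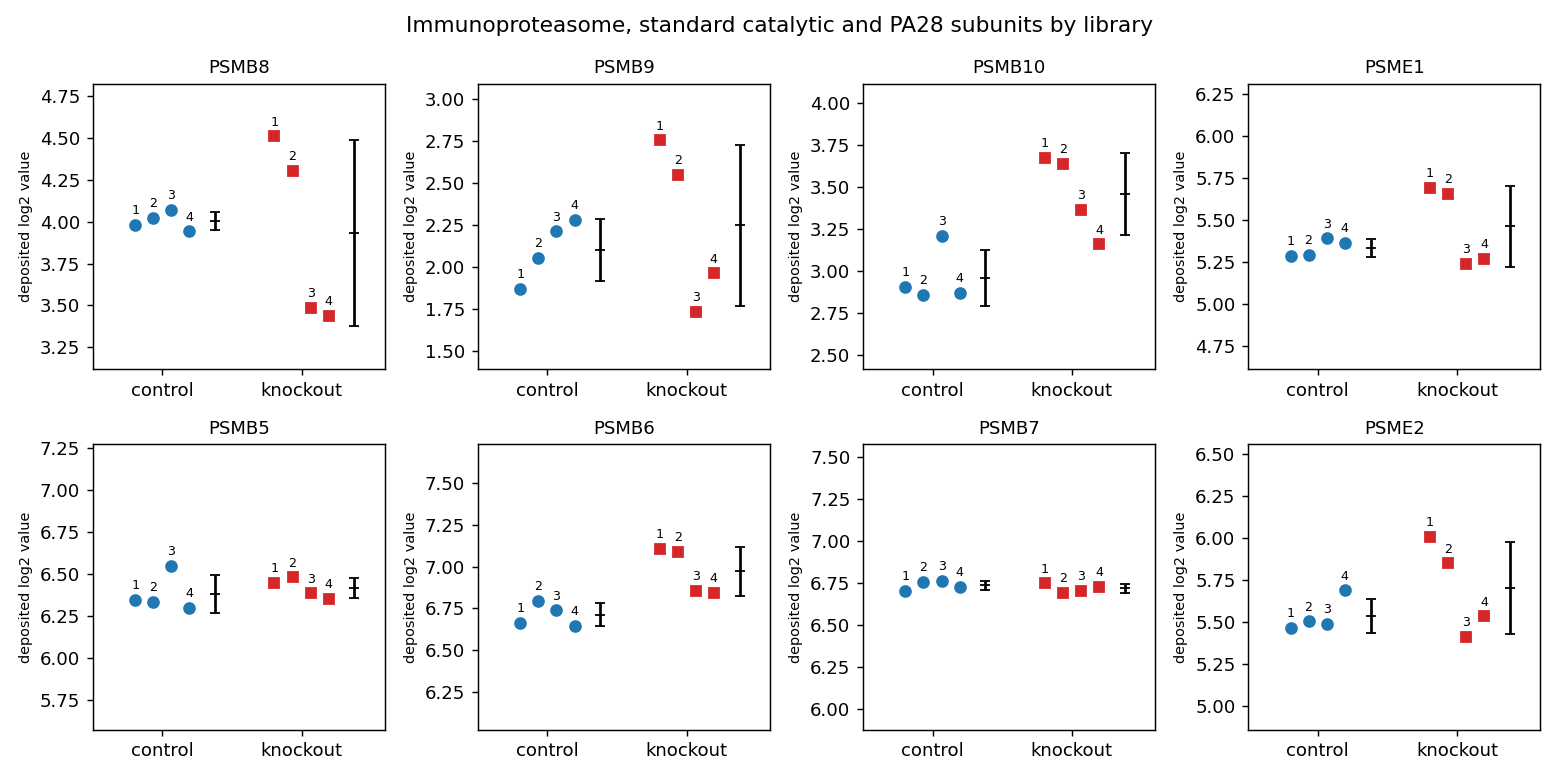
Deposited log2 value (y axis, the same span in each panel) of the immunoproteasome subunits PSMB8, PSMB9 and PSMB10, the standard catalytic subunits PSMB5, PSMB6 and PSMB7 and the PA28 subunits PSME1 and PSME2 in each control (circles) and knockout (squares) library, numbered by replicate; the black bars are mean ± SD of 4 libraries. Knockouts 1 and 2 sit above knockouts 3 and 4 for PSMB8, PSMB9, PSMB10, PSMB6, PSME1 and PSME2, and PSMB7 is flat.

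The 250 bases upstream of the first RefSeq start of the immunoproteasome genes are shown because these genes share inducers yet parted in libraries 3 and 4. They are from GRCh38.p14, read 5′ to 3′ on the gene's strand, with capitals for matches to the motifs searched. PSMB8 spans chr6:32840717-32844679 on the minus strand and PSMB9 chr6:32854192-32859851 on the plus strand, and the start of TAP1 lies 488 bases from that of PSMB9 on the opposite strand. The annotated genes PSMB8, PSMB9, TAP1 and PSMB8-AS1 overlap in GENCODE, so their reads may not be told apart if strand was not used in counting; PSMB9 and PSMB8-AS1 overlap on the same strand, where strand does not separate them either. PSMB10 lies elsewhere, at chr16:67934506-67936850 on the minus strand.
PSMB8 (chr6:32844680-32844929, minus): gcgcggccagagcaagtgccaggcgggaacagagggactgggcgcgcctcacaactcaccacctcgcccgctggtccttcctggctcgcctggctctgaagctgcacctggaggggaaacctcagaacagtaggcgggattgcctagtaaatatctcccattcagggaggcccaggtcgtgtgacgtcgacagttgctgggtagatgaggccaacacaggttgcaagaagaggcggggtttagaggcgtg
PSMB9 (chr6:32853942-32854191, plus): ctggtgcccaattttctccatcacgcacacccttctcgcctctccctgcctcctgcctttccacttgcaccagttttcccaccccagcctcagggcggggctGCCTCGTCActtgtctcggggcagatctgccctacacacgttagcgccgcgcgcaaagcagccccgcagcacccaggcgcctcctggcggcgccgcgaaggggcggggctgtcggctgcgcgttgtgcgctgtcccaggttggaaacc
PSMB10 (chr16:67936851-67937100, minus): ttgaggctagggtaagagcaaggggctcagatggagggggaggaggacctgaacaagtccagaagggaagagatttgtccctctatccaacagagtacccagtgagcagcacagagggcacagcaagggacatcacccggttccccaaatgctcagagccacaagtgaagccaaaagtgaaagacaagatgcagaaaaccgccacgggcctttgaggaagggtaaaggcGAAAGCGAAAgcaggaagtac

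Motif searches covered both strands of the window from 250 bases before to 50 after the start, for the 41 of 47 proteasome genes with a RefSeq promoter. That start was the outermost one of the gene for 35 of them and an inner one for 6, PSMG4 among them. The interferon-stimulated response element core, GAAA repeated on 1 strand after 2 bases of any kind, was found in 6 of the 41 (14.6%, against 3.65% of the promoters of 27305 genes). The antioxidant response element core TGACNNNGC, the kind of site that NFE2L1 binds, was found in 13 (31.7%, against 13.6%), and the gamma-activated site TTCNNNGAA in 4 (9.76%, against 7.88%). In PSMB10 the interferon element begins 21 bases before the start; the printed PSMB8 and PSMB9 windows hold no match to it. A match describes letters in this window and not binding.

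The 5 other interferon element matches are printed with 10 bases on each side, on the gene's strand, with the match in capitals; the PSME1 match is on the opposite strand and begins after the start, and the PSMG4 match lies by an inner start, 4543 bases inside the annotated gene from its outermost start.
PSMA4 (chr15:78540155-78540184, plus): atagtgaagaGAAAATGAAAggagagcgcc
PSMB4 (chr1:151399495-151399524, plus): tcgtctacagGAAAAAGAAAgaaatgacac
PSMG4 (chr6:3258904-3258933, plus): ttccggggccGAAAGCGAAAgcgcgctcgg
PSME1 (chr14:24136189-24136218, plus): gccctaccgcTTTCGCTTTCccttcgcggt
PSME2 (chr14:24146619-24146648, minus): cctggggagtGAAAGCGAAAgcccgggcga
The 6 genes with this element had differences from -0.17 (PSMB4) to 0.50 (PSMB10), a median of 0.23 against 0.12 for the 35 without it. Genes with the antioxidant element had a median of 0.13, against 0.14 for the 28 without it. The ranges of the sets with and without each element overlapped.

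PSME1 and PSME2 form PA28, an interferon-inducible cap that opens the 20S core without ATP. PSME1 was at 5.29, 5.29, 5.39 and 5.36 in controls and 5.69, 5.66, 5.24 and 5.27 in knockouts, and PSME2 at 5.46, 5.50, 5.49 and 5.69 in controls and 6.003, 5.85, 5.41 and 5.53 in knockouts. Like PSMB8, both genes had their highest values in knockouts 1 and 2. Their differences were 0.13 (95% interval -0.14 to 0.39) and 0.16 (95% interval -0.14 to 0.47), with limma adjusted p = 0.503 and 0.448. In libraries 1 and 2 they were 0.38 and 0.44, and in libraries 3 and 4 -0.13 and -0.11. Among the remaining caps, PSME3, the nuclear PA28-gamma, differed by 0.19 (limma adjusted p = 0.211). PSME4, which encodes PA200, ran the other way: it was at 3.53, 3.59, 3.23 and 3.60 in controls and at 2.79, 2.95, 3.48 and 3.75 in knockouts, -0.68 in libraries 1 and 2 and 0.20 in libraries 3 and 4 (overall -0.24, limma adjusted p = 0.470).

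In the alpha ring, which gates entry to the core, 1 of 7 genes passed, 5 of 7 were above 0 and the median difference was 0.15. PSMA4 was at 3.96, 4.03, 3.85 and 4.05 in controls and at 4.20, 4.18, 4.42 and 4.42 in knockouts. No knockout value overlapped a control, and PSMA4 rose by 0.33 ± 0.09 (SE; 1.26-fold; limma adjusted p = 0.0381), by 0.19 in libraries 1 and 2 and 0.47 in libraries 3 and 4. PSMA5 was at 5.39, 5.47, 5.29 and 5.37 in controls and 5.20, 5.18, 5.25 and 5.16 in knockouts, so all its knockout values were lower, with a difference of -0.18 ± 0.06 (SE; limma adjusted p = 0.0895). None of the 4 remaining beta ring genes passed (limma; PSMB3 and PSMB2 higher at an unadjusted p under 0.05). PSMB3 had the highest difference there (0.27, limma adjusted p = 0.0574; 0.0456 when genes needed a mean of at least 3) and PSMB4 the lowest (-0.17, limma adjusted p = 0.501).

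Of the 17 tested subunits of the 19S regulator 1 passed, 16 had a difference above 0 (median 0.12; 51.3% of all tested genes were above 0), and 7 had all knockouts above all controls, against 12.5% of tested genes. PSMC3, an ATPase of the base that threads substrates into the core, was at 5.71, 5.77, 5.90 and 5.83 in controls and at 5.996, 6.02, 6.15 and 6.17 in knockouts. The groups did not overlap, and PSMC3 rose by 0.28 ± 0.07 (SE; 1.22-fold; limma adjusted p = 0.0383), by 0.27 in libraries 1 and 2 and by 0.29 in libraries 3 and 4. The other 5 ATPase genes lay between 0.07 (PSMC6) and 0.20 (PSMC1) with adjusted p-values above 0.05.

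All 8 lid genes had a difference above 0, from 0.04 (PSMD12) to 0.17 (PSMD13), and none passed (limma; 1 of them, PSMD13, at an unadjusted p under 0.05). The lid includes PSMD14, the enzyme that cuts ubiquitin from substrates. PSMD4, a ubiquitin receptor of the base, was the exception in the 19S regulator. It was at 7.72, 7.73, 7.53 and 7.63 in controls and 7.68, 7.72, 7.04 and 7.05 in knockouts, close to the controls in knockouts 1 and 2 and below them all in knockouts 3 and 4 (overall -0.28, limma adjusted p = 0.314). PSMD1, a scaffold of the base, had the highest difference of the base genes outside the ATPases (0.14, limma adjusted p = 0.386).

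Assembly factors were mixed, and none of the 7 passed (limma; PSMG4 and PSMD10 higher at an unadjusted p under 0.05). PSMG1, a chaperone of alpha ring assembly, was at 4.61, 4.62, 4.42 and 4.59 in controls and at 5.28, 5.20, 4.60 and 4.44 in knockouts, 0.63 higher in libraries 1 and 2 and 0.02 in libraries 3 and 4 (overall 0.32, limma adjusted p = 0.290). Its partner PSMG2 differed by -0.01 (limma adjusted p = 0.958). Of the base chaperones, PSMD10 differed by 0.19 (limma adjusted p = 0.151) and PSMD5 by -0.15 (limma adjusted p = 0.179), the latter with every knockout below every control. PSME3IP1, a nuclear interactor of PSME3, had all knockouts above all controls (0.15, limma adjusted p = 0.121).

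**Figure D3:**
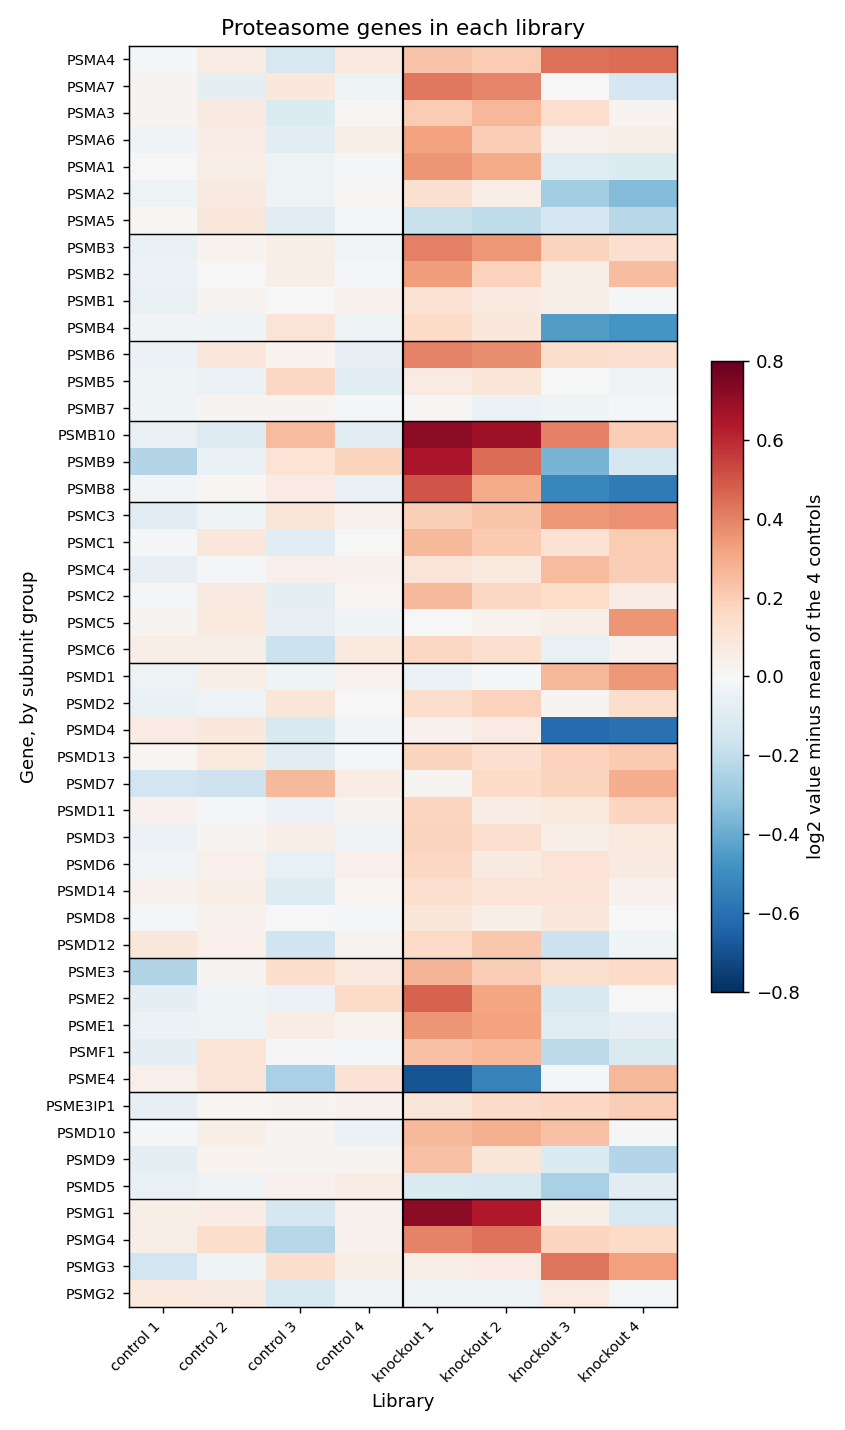
Deviation of each proteasome gene (rows, grouped by subunit class) from the mean of the 4 controls in each of the 8 libraries (columns), in log2 units on a colour scale from -0.8 to 0.8. Rows such as PSMC3 and PSMD13 are above 0 in all 4 knockouts, while PSMB8, PSME1 and PSMF1 change sign between knockouts 1-2 and knockouts 3-4.

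Over the whole set, both knockouts 1 and 2 exceeded both knockouts 3 and 4 for 29 of 47 genes (61.7%, against 43.6% of tested genes), and the reverse held for 11 (23.4%, against 41%). The difference was above 0 in libraries 1 and 2 for 39 genes and in libraries 3 and 4 for 31, with medians of 0.18 and 0.06 against 0.03 and 0.00 for all tested genes. It was above 0 in both for 27 genes (57.4%, against 30.4% of tested genes) and below 0 in both for 4 (8.51%, against 26.7%). Without knockouts 3 and 4, 20 proteasome genes were called higher and 1 lower, where limma called 40.5% of all genes; without knockouts 1 and 2, 7 were called higher and 4 lower, where it called 41.4%.

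**Figure D4:**
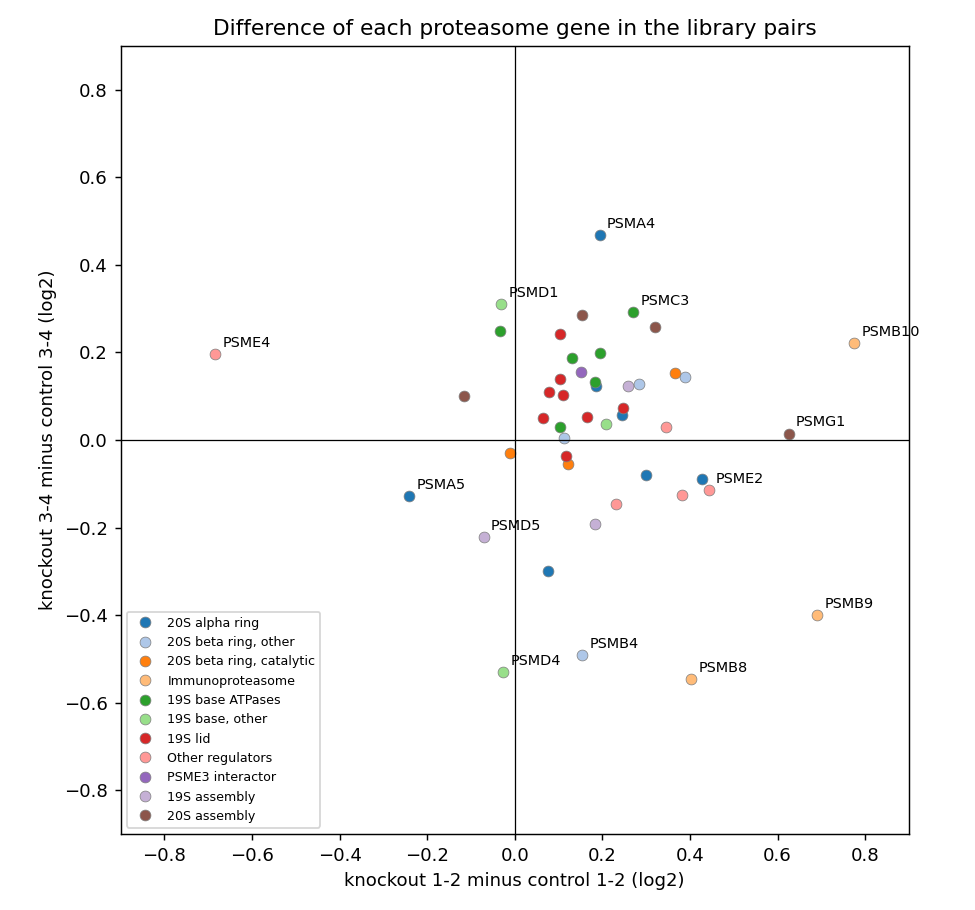
Difference of each proteasome gene in libraries 3 and 4 (y axis, log2) against its difference in libraries 1 and 2 (x axis, log2), coloured by subunit group. PSMB10, PSMC3 and PSMA4 lie above 0 on both axes, PSMB8 and PSMB9 are high on the x axis and low on the y axis, and PSMB4 and PSMD4 are low on the y axis alone.

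For several of these genes the tested genes nearby had differences of the same sign, and for others they did not. PSMD4 (chr1:151254734-151267479) and PSMB4 (chr1:151399573-151401937) are close neighbours, and their differences in libraries 3 and 4 were -0.53 and -0.49. Of the 33 other tested genes within 1 Mb of PSMD4, PSMB4 included, 31 were below 0 in those libraries. Their median of -0.49 was the value of PSMB4 itself. Of all 9016 tested genes 4477 were above 0 in libraries 3 and 4. Around PSMA4 all 8 tested neighbours were above 0 in libraries 3 and 4, with a median of 0.43, and their median overall difference was 0.30 beside the 0.33 of PSMA4. Around PSMB8 and PSMB9, each counted among the neighbours of the other, 32 of 35 were below 0 in libraries 3 and 4 (median -0.36), while the median in libraries 1 and 2 was 0.04. For PSMA5, the medians of 21 neighbours were -0.27 in libraries 1 and 2 and -0.20 in libraries 3 and 4, beside its own -0.24 and -0.13. Around PSMB10 and PSMC3 the medians overall were 0.08 (27 genes) and 0.05 (19 genes), well under the differences of those genes. In libraries 3 and 4 PSMG1 differed by 0.02 where its 4 neighbours had a median of -0.44, and PSMD5 by -0.22 where its 7 neighbours had 0.06. The neighbours of the other proteasome genes are not reported here. The part of neighbouring genes in the results was not tested, and the 1 Mb window was chosen after the values of PSMB4 and PSMD4 were seen.

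Genes that act with the proteasome gave few calls. Of all tested genes 13.1% were called in either direction and 51.3% were above 0. Of 16 tested proteasome-associated genes 7 were above 0, with a median of -0.03, and 1 passed: ECPAS, an adaptor and scaffold of the 26S particle, fell by 0.35 (limma adjusted p = 0.0214), its 4 controls averaging 4.58 ± 0.13 (SD) and its 4 knockouts 4.23 ± 0.02. All 6 ubiquitin and ubiquitin-activating enzyme genes were below 0 (median -0.10) and none passed (limma). Among 14 regulators of proteasome genes, which include NFE2L1 and its processing enzymes, 12 were below 0 (median -0.18) and 1 passed, SYVN1, a ubiquitin ligase of the endoplasmic reticulum, which fell by 0.31 (limma adjusted p = 0.0269). NFE2L1 itself differed by -0.19 and did not pass (limma adjusted p = 0.160). Its protein was not measured, and its part in the differences of the subunit genes was not tested.

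Class I presentation genes, which use the peptides that proteasomes make, had a median difference of -0.15 over the 16 tested, and TAPBP and THOP1 were among those that passed. TAPBP, the tapasin that loads peptides, was at 3.18, 3.14, 3.19 and 3.15 in controls and 2.44, 2.37, 2.34 and 2.39 in knockouts, and fell by 0.78 (limma adjusted p = 7.899e-04) by about as much in libraries 1 and 2 (-0.75) as in libraries 3 and 4 (-0.80). THOP1, a peptidase that destroys such peptides, rose by 0.55 (limma adjusted p = 0.0243). The transporter genes TAP1 and TAP2, which lie beside PSMB9 and PSMB8, did not pass. TAP2 was at 2.74, 2.82, 2.87 and 2.80 in controls and 3.35, 3.32, 2.46 and 2.46 in knockouts, with knockouts 1 and 2 above and knockouts 3 and 4 below every control as for PSMB8; TAP1 differed by 0.10 in libraries 1 and 2 and by -0.48 in libraries 3 and 4.

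Of 17 tested interferon and NF-kappaB factor genes, 8 were called and all were lower, against 6.1% of all tested genes called lower, with a median over the list of -0.32. With the replicate block 5 were called lower, with averaged knockout pairs 2, and with single libraries left out 3 (without control 4) to 7 (limma). The largest falls were in RELB (-1.65), NFKBIA (-1.002), NFKB2 (-0.91) and IRF9 (-0.60), with limma adjusted p = 0.00427, 0.00133, 0.0176 and 0.00676. IRF1 differed by -0.09 (limma adjusted p = 0.395). With the knockout pairs averaged, RELB, NFKBIA and TAPBP still passed, while IRF9, NFKB2, THOP1, ECPAS and SYVN1 did not (limma adjusted p = 0.0571, 0.0743, 0.136, 0.144 and 0.147).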

How the data were processed

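RNA of 4 vector-control and 4 NELL1-knockout libraries of 143B cells was sequenced from stranded total-RNA libraries, per the labels' protocols. The submitters' processing notes name GRCh38, bcl2fastq and Partek 7.0 without a role for each; the aligner, counting program and annotation are not given in the sources used here. The deposited log2 values were quantile normalized by the authors, judged from identical distributions, and base 2 was inferred from their range. Blank cells were treated as missing.

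Limma 3.58.1 in R 4.3.3 (lmFit, eBayes without trend) was fitted without covariates to 9016 genes with 8 values whose mean reached 1, giving knockout minus control differences with Benjamini-Hochberg adjustment over all of them; it was tested on simulated data. Deviations from group means correlated at 0.20 to 0.29 across genes between same-numbered libraries, over 0.1 in each of 4 pairs, so the replicate numbers from the titles were treated as pairs, and the fit with a replicate block is given wherever it changes a call. Only 1 library correlated best with its own number.

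Members and gene lists were chosen with earlier results of these data known. Named were genes that passed, PSMB5 to PSMB10, PSME1, PSME2, the extremes of each subunit group and, in other lists, the called genes with the 4 largest rises and falls; PSMB4, PSMD4, PSMG1, PSME4 and other genes shown by library, and NFE2L1, TAP1, TAP2 and IRF1, were detailed after their values were seen. Some genes of the lists are not reported here. Promoter sequences and coordinates are from RefSeq, GRCh38.p14 (41 of 47 genes with a promoter; all 47 matched a gene by symbol). Overlaps were taken from GENCODE 29: 25 of the 47 genes overlap a gene on the opposite strand, among them PSMB8 and PSMB9, 13 overlap one on the same strand, and 12 have named pseudogene copies; whether counting used strand is not given, so such values are uncertain. Alternatives were other filters, scaling, a pseudocount of 1, a variance trend, a replicate block, averaged libraries, stricter thresholds and leaving out libraries.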

Additional observations from a re-analysis of the deposited data

Results flagged for a closer look

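Among 94 sets of 4 libraries (47 genes in 2 groups), 6 held 1 library set apart from the other 3 by Dixon's ratio at the 95% level; chance alone flags about 5% of such sets. Control 3 was that library in 4 of them: PSMB4 at 8.22 with the next control at 8.08, PSMB10 at 3.21 with the next at 2.90, PSMC6 at 4.48 with the next at 4.69, and PSMG1 at 4.42 with the next at 4.59. Control 1 was low for PSMD9, at 3.14 with the next at 3.23. Knockout 4 was high for PSMC5, at 6.29 with the next at 5.98. The value of control 3 is the reason the PSMB10 groups overlap; without it the PSMB10 difference was 0.58 (limma adjusted p = 0.0282).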

How the results depend on the processing

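The 3 calls among proteasome genes, all higher, became 0 without the filter on low values, with the replicate block, with averaged knockout pairs, at an adjusted p under 0.01 and with both groups averaged in pairs, and 8 with a term for replicates 1-2 against 3-4. When 1 library was left out, 0 to 3 were called higher and 0 lower. Without knockouts 1 and 2 there were 7 higher and 4 lower, and without knockouts 3 and 4 20 higher and 1 lower. Limma counts at an unadjusted p under 0.05 were 10 higher and 1 lower with no filter, 9 and 1 with the block, 6 and 0 with averaged knockouts, and 1 and 0 with both groups averaged. Over all genes, in either direction, the counts at that threshold were 3708, 2745, 1854 and 706 in these settings. Leaving out pairs of knockouts and averaging both groups were chosen after seeing the data. Over all genes, 1183 calls became 729 with a mean of at least 3, 2274 with the term for replicates, 108 with averaged knockouts, 272 at the stricter threshold, 0 with both groups averaged (706 genes at an unadjusted p under 0.05), 3732 without knockouts 1 and 2, 3654 without knockouts 3 and 4, and 391 to 1353 when 1 library was left out. PSMB10 (0.50) was above 0 in every alternative, from 0.43 to 0.60 with 1 library left out and 0.30 without knockouts 1 and 2; its limma adjusted p was 0.0688 without the filter, 0.0685 with the block, 0.145 with averaged knockouts and 0.633 with both groups averaged. PSMB8 ranged from -0.26 to 0.094 with 1 library left out, and was -0.54 without knockouts 1 and 2 and 0.40 without knockouts 3 and 4. PSMB9 ranged from -0.023 to 0.32, and was -0.26 and 0.55. PSMG2 ranged from -0.047 to 0.019 and PSMD12 from -0.018 to 0.11. The replicate block took the calls among proteasome genes from 3 to 0 and those among interferon and NF-kappaB factors from 8 to 5. It left the calls of RELB, NFKBIA, NFKB2, IRF9, TAPBP, THOP1, ECPAS and SYVN1 in place. The cause of these changes was not tested, and depth is unknown.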
